A study of Mus musculus with 4 samples.

Results

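The loci of 42 imprinted genes were examined for chromatin accessibility in fibroblasts with and without induced deletion of Ash2l. The genes fall into 19 imprinted clusters, and a site was taken as a member if its centre lay in the body of one of these genes or within 5 kb of it (GENCODE vM1 annotation, mm9). In total 178 of 119609 intervals were members. They belonged to 40 genes. Usp29 had 0 intervals at its annotated position, and Kcnq1ot1 was not analysed because the annotation holds no gene under this symbol.

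Open chromatin was profiled with ATAC-seq, where a hyperactive Tn5 transposase inserts sequencing adapters into open chromatin. The cells were 1 line of mouse embryo fibroblasts, immortalized with an shRNA against Arf, carrying loxP sites around exon 4 of both Ash2l alleles (Ash2l fl/fl) and expressing Cre-ER, a Cre recombinase that enters the nucleus upon binding of 4-hydroxytamoxifen. Cells of the +HOT group received 5 nM 4-hydroxytamoxifen for 7 days and cells of the -HOT group received ethanol, so both groups carry the floxed alleles, Cre-ER and the shRNA. Each group holds 2 libraries that the submitters call technical replicates, and p-values therefore measure the spread between libraries and not between cultures. Drug-treated cells with wild-type Ash2l were not analysed here, and the loss of Ash2l, the drug and the activity of Cre cannot be told apart. In -HOT, 1 library received fewer extra PCR cycles. The methods call it the second -HOT replicate and do not link it to a library label.

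An imprinted gene is expressed from the allele of one parent. In most clusters the choice is set by a germline differentially methylated region (germline DMR), a CpG-rich element whose DNA is methylated in the egg or in the sperm and which keeps this methylation on a single parental allele after fertilization. Many maternally methylated DMRs are promoters of a paternally expressed transcript, often a noncoding one such as Airn. On the unmethylated allele such promoters carry methylated lysine 4 of histone H3, on the other allele they carry DNA methylation and methylated lysine 9. The protein ZFP57 recognises the hexanucleotide TGCCGC in its methylated form and recruits KAP1 (Trim28), which maintains the mark. Ash2l is a core subunit of the KMT2 complexes, the main methyltransferases for lysine 4 of histone H3. The reads of these libraries were not assigned to parental alleles. A lower value can mean fewer cells with an open site, a less open site per cell or a change on a single allele, and these cannot be told apart.

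The sequences of the sites that the following results turn on are given first, from the mm9 genome. In the first set, which shows the DNA of 5 sites with reduced accessibility, capitals mark TGCCGC on either strand, so that a match on the opposite strand reads GCGGCA. The matches are descriptions of the letters and not evidence of binding.
Gnas locus, upstream of the antisense transcript Nespas, chr2:174121197-174121496, minus strand: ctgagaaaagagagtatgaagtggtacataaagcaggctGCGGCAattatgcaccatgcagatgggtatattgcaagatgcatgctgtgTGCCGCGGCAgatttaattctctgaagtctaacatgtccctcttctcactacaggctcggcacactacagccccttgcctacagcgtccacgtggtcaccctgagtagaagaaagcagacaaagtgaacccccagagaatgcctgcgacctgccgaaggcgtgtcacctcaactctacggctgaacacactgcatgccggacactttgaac
Gnas locus, the 300 bases before the first exon 1A start, chr2:174152771-174153070, plus strand: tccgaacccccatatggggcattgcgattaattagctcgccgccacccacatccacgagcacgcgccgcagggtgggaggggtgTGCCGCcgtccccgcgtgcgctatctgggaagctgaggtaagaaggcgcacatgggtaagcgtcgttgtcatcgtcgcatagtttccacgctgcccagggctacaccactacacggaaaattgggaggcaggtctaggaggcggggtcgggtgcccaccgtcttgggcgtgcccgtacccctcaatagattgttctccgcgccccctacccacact
Peg10 and Sgce, the 101 bases between their divergent starts, chr6:4697205-4697305, plus strand: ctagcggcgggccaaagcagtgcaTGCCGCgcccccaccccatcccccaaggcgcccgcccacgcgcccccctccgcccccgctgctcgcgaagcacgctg
Snrpn, first intron, the window of the site with the most matches, chr7:67149193-67149492, minus strand: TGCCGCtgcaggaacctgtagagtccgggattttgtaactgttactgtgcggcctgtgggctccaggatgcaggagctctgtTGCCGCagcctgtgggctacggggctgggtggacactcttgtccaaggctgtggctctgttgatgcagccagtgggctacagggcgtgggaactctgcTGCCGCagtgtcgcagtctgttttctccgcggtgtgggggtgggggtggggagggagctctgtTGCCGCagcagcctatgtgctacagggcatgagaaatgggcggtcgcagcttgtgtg
Inpp5f, the 300 bases before the internal start of transcript Inpp5f-006, chr7:135831703-135832002, plus strand: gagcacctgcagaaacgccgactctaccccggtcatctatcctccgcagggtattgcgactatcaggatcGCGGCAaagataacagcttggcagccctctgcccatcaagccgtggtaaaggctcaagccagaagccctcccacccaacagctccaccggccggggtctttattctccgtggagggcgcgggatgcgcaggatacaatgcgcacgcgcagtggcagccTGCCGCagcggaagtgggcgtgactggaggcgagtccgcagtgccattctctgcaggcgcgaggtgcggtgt

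Within these windows TGCCGC occurred 3 times at Nespas, once at exon 1A, once between Peg10 and Sgce, 4 times in Snrpn and 2 times at Inpp5f-006. At Nespas 2 of the 3 overlap, and in the Snrpn window all 4 lie on the strand shown. Of all sites 5.49% held TGCCGC in the 300 bases around their centre, of all promoter sites 16.4% and of the imprinted-locus sites 14.0%, that is 25 of 178. The windows printed were not placed at site centres, and the one of Snrpn was picked for its matches, so these shares are no background for them. Over whole sites, which differ in length, 13.5% of all sites, 41.6% of promoter sites and 29.2% of the imprinted-locus sites held TGCCGC, and 17.5% of promoter sites held it 2 or more times. Among the 64 imprinted-locus promoter sites 51.6% held it, 29.7% held it 2 or more times and 25.0% held it in the central 300 bases. The difference from all promoter sites was not tested.

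The second set shows the DNA upstream of H19 that binds the insulator protein CTCF on the maternal allele, and it is given because 2 neighbouring sites there did not change. Capitals mark a CTCF motif, searched on both strands as CCGC, any 2 bases, GG, any base and GGCAG, and 10 bases are shown on each side.
H19 upstream match 1, chr7:149766204-149766237, minus strand: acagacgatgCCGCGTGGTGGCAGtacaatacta
H19 upstream match 2, chr7:149766659-149766692, minus strand: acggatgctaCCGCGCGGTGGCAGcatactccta
H19 upstream match 3, chr7:149767685-149767718, minus strand: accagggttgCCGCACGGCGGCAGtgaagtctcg
H19 upstream match 4, chr7:149767929-149767962, minus strand: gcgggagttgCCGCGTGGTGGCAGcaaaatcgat

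All 4 matches lie on the strand of H19, 2172, 2627, 3653 and 3897 bp upstream of its furthest annotated start. TGCCGC overlaps 3 of the 4 in part. Only 166 of 119609 sites held this motif anywhere in the interval (0.139%), and just 3 held it 2 or more times. The 2 H19 sites were among these 3. The pattern is strict and was matched exactly, so these counts do not give the number of sites that CTCF can bind. The paper's footprint analysis listed far more CTCF sites in its ATAC-seq data. The counts describe the letters and carry no test.

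The libraries held 28117900 and 21356440 reads in intervals in +HOT and 37151163 and 30411621 in -HOT, of which 0.156% to 0.168% lay in the imprinted-locus sites. Over all sites the log-CPM values correlated at 0.976 within +HOT, at 0.984 within -HOT and at 0.918 to 0.923 between the groups. Exon 4 of Ash2l was covered by 0 intervals, so the deletion itself could not be read from these counts. The Ash2l promoter site was not called (log2 fold change -0.25). An accessible promoter site was found for all 13 fibroblast markers, 8 of 8 neural, 5 of 6 epithelial, 3 of 4 endothelial and 1 of the 4 blood markers in the annotation. The presence of a promoter site thus did not single out fibroblasts. The level differed, with a median over the 4 libraries of 44.2 CPM for the fibroblast markers and 7.24 CPM for the markers of other cell types.

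Levels are given as CPM, the reads of an interval scaled to the size of the library with TMM factors, in the order first and second +HOT library, then first and second -HOT library. Calls came from the quasi-likelihood test of edgeR, with p-values adjusted after Benjamini and Hochberg over the 119603 tested sites. A site counted as lost or gained if the adjusted p was below 0.05 and the log2 fold change of +HOT over -HOT exceeded 0.40 in size. All 178 imprinted-locus sites were tested. Of these 28 were lost and 27 were gained, and 123 were not called. Over all tested sites 14.2% were lost and 21.3% were gained, so that 15.7% lost among the imprinted-locus sites lies close to the background and 15.2% gained lies below it. Their median log2 fold change was -0.10, and was -0.12 to -0.08 when single +HOT libraries were set against single -HOT libraries, beside 0.00 for all sites. The split depended on scaling. Library totals gave 21 lost and 31 gained (10.6% and 24.2% of all sites), and TMM factors from sites away from promoters gave 37 lost and 22 gained (19% and 18.3%). These scalings shifted the median of all sites to 0.07 and -0.08, so that the imprinted-locus median stayed below that of all sites. This comparison takes no account of the share of promoter sites. With abundance-trended offsets 32 were lost and 13 gained (15.5% and 16.6%), and DESeq2 called 22 lost and 10 gained (10.0% and 12.6%).

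Among the 64 sites within 3000 bp of a transcription start site (TSS), 14 were lost and 4 gained, where 23.5% of all promoter sites were lost and 7.07% gained. The other 114 sites comprised 14 lost and 23 gained, where 12.3% and 24.1% of all such sites were lost and gained. The shares of imprinted-locus sites, 21.9% lost and 6.25% gained at promoters and 12.3% lost and 20.2% gained elsewhere, were thus near these backgrounds. Promoter sites made up 64 of the 178 imprinted-locus sites and 20542 of all 119603 tested sites. The median log2 fold change was -0.15 at imprinted-locus promoter sites, beside -0.21 at all promoter sites. Away from promoters it was -0.05, beside 0.07 for all such sites. The groups did not overlap at any of the 55 called sites. Over the 178 sites they did not overlap at 130 (73.0%), beside 70.8% of all sites. Within 9 of the 19 clusters there were both lost and gained sites, as the plot of log2 fold changes by cluster shows. The counts by cluster below stand beside 14.2% lost and 21.3% gained over all sites, and no cluster was tested as a set.

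**Figure D1:**
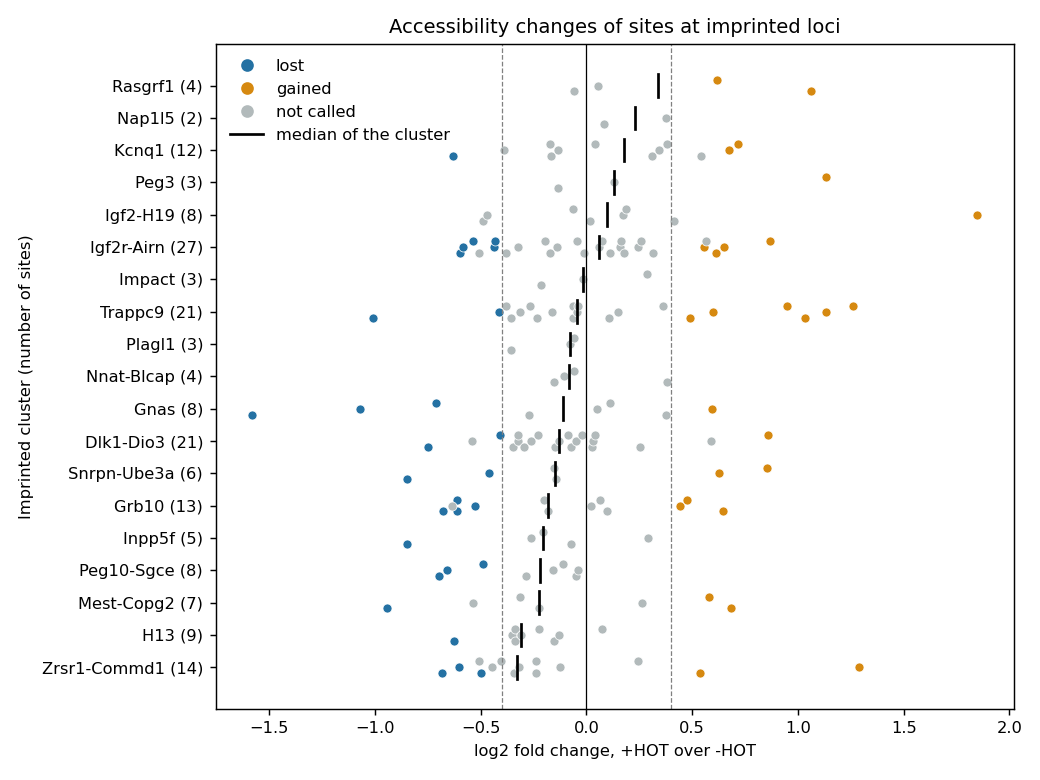
Log2 fold change (+HOT over -HOT, horizontal axis) of each of the 178 imprinted-locus sites, by cluster, with the number of sites in brackets. Each point is a site, coloured by its call, black bars are cluster medians and dashed lines mark the fold minimum of 0.40. The lowest point is the Nespas site of the Gnas locus at -1.58 and the highest is the site downstream of Igf2 at 1.85.

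The Gnas locus encodes the stimulatory G protein alpha subunit and several imprinted transcripts that share its downstream exons, and it is described site by site from its 5′ end. Its transcripts start at the Nesp promoter (maternally expressed), at the Gnasxl promoter (paternally expressed), at exon 1A (paternally expressed, noncoding) and at exon 1, the start of the G protein transcript, which is expressed from both alleles in most tissues. The antisense transcript Nespas starts between Nesp and Gnasxl and is paternally expressed. The Nespas and Gnasxl promoters share a germline DMR, and exon 1A is another. Of the 8 sites 3 were lost and 1 was gained, and the 2 sites with the largest losses among all 178 were the starts of Nespas and of exon 1A.

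Site 1 lay over the Nesp start (chromosome 2, 174109028 to 174110324, its centre 145 bp upstream of transcript Gnas-007). It measured 5.20, 4.02, 3.94 and 4.69 CPM, and the groups overlapped. The log2 fold change was 0.11 (SE 0.18).

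Site 2 covered both upstream starts of Nespas, with its centre 22 bp from the nearer one (174119969 to 174121767, in an intron of the long Gnas transcripts). It measured 4.91 and 5.37 CPM in +HOT against 14.9 and 15.8 CPM in -HOT, or 5.14 ± 0.324 and 15.4 ± 0.581 CPM (SD, n = 2), a level 2.99-fold higher in -HOT. The groups were well apart. The log2 fold change was -1.58 (SE 0.13, adjusted p = 2.71e-20 by edgeR's quasi-likelihood test), and it stayed between -1.64 and -1.51 when any single library was left out. The sequence upstream of Nespas shown above is part of this site, which held 5 TGCCGC in its 1799 bp.

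Site 3 lay in the first exon of Gnasxl, 1862 bp downstream of its start (174124746 to 174125698). It measured 2.74 and 3.43 CPM in +HOT against 4.86 and 5.16 CPM in -HOT and was lost (log2 fold change -0.71, SE 0.19, adjusted p = 0.00139, edgeR). The call ended without the first +HOT library (adjusted p = 0.0516), and so did the removal of the GC trend (-0.43). The groups did not overlap.

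Sites 4 and 5 lay in the intron downstream of Gnasxl, at 13192 bp and 14550 bp from its start. Site 4 measured 4.25, 4.06, 2.86 and 2.64 CPM and was gained, with a log2 fold change of 0.59 (SE 0.20, adjusted p = 0.0129, edgeR). This was the only gain of the locus, and it was not called by DESeq2 (adjusted p = 0.105) nor by edgeR without the first +HOT library (0.0714) or without the second -HOT library (0.0888). Site 5 measured 2.63, 3.52, 2.39 and 2.31 CPM and was not called (log2 fold change 0.37).

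Site 6 covered the 6 annotated exon 1A starts (174152335 to 174153633, centre 87 bp upstream of transcript Gnas-015). It measured 6.14 and 7.45 CPM in +HOT against 15.6 and 12.6 CPM in -HOT, a level 2.08-fold higher in -HOT. The log2 fold change was -1.07 (SE 0.13, adjusted p = 7.29e-12, edgeR), between -1.22 and -0.90 when any single library was left out. Both -HOT libraries exceeded both +HOT libraries.

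Site 7 covered exon 1 and its 4 annotated starts (174154662 to 174156848, centre 33 bp upstream of transcript Gnas-018). It was the most accessible of the locus, with 36.2 and 29.8 CPM in +HOT against 34.4 and 29.6 CPM in -HOT. The groups overlapped, the estimate was 0.05 (SE 0.10) on the log2 scale, and it ranged from -0.10 to 0.18 when a single library was left out. With the GC trend removed it was 0.36, and the site was called under none of the 13 alternatives.

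Site 8 lay in the 3′ part of the gene (174168305 to 174170261) and measured 14.1, 14.3, 17.2 and 17.1 CPM. The groups did not overlap, but the log2 fold change of -0.27 was below the fold minimum.

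A ratio within a library does not depend on scaling between libraries. Relative to exon 1 (site 7), Nespas (site 2) stood at 0.136 and 0.180 in +HOT and at 0.435 and 0.533 in -HOT. Exon 1A (site 6) stood at 0.170 and 0.250 in +HOT and at 0.455 and 0.426 in -HOT. The Nesp start (site 1) stood at 0.143 and 0.135 against 0.115 and 0.159. Hence Nespas and exon 1A fell relative to the exon 1 promoter in the same libraries in which the Nesp ratios overlapped. With 2 libraries per group, the smallest p that a two-sided exact permutation test of such a ratio can give is 0.333, and the ratios carry no test. Summed over the 8 sites the locus held 76.2 and 72.0 CPM in +HOT and 96.2 and 89.8 CPM in -HOT.

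**Figure D2:**
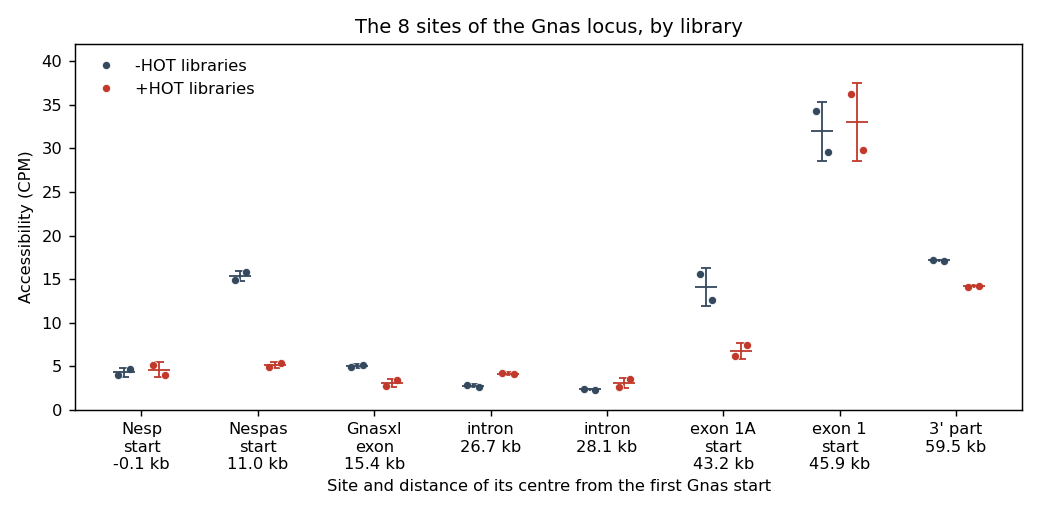
Accessibility (CPM, vertical axis) at the 8 sites of the Gnas locus in each library, with group means and SD (n = 2 per group), ordered from the 5′ end and labelled with the distance of the site's centre from the first Gnas start in kb. At Nespas (11.0 kb) and exon 1A (43.2 kb) the +HOT points lie below the -HOT points, while at exon 1 (45.9 kb) they overlap.

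Genes with a start in a maternally methylated germline DMR were compared next, taking for each gene the site nearest to one of its starts. Such sites were found for 13 member genes, which share 12 sites because Peg10 and Sgce share theirs. Among them 4 were lost and none was gained, and the median change was -0.17 on the log2 scale (range -0.66 to 0.09). However, for Gnas, Inpp5f and Grb10 these 3 sites lay at another start than the one in the DMR, and 1 of the 4 losses was such a site (Grb10-003). With the sites at Nespas, exon 1A, Inpp5f-006 and Grb10-001 in their place, a choice made after the values were seen, 6 of 13 sites at DMR starts were lost, 1 was gained and 6 were not called, with a median of -0.22 and a range of -1.58 to 0.47. This set leaves out the site of Mcts2, described below as the source of the imprint at H13, which was not called (-0.31). The 25 other genes had 2 lost and 2 gained sites and a median of -0.15. At all promoter sites together 23.5% were lost and 7.07% gained, and the median was -0.21, so the medians given here lay near that background. By expressed allele, 5 of 17 promoter sites of paternally expressed genes were lost and 1 was gained, while 1 of 18 was lost and 1 gained among genes with maternal expression, including maternal bias and maternal expression in a single tissue. Neither difference between these groups was tested. The DMR status and the expressed allele of each gene were set from textbook knowledge and not measured in these fibroblasts. For Igf2r, Cd81, H13 and Slc22a18, all among the 25 and the 18, the site counted lay at an internal start and was not called. The site counted for Zim1, the 1 gain among the 18, lay at an internal start too (Zim1-002). The H13 promoter, described below, was not called. The sites at Igf2r-001 and at the Cd81 promoter, described below, were lost (-0.59 and -0.63), so these counts depend on the start chosen.

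Peg10, a retrotransposon-derived gene needed for the placenta, and Sgce, which encodes epsilon-sarcoglycan, share a bidirectional promoter. Its site (chromosome 6, 4696562 to 4699482) measured 16.1 and 18.8 CPM in +HOT against 28.8 and 26.2 CPM in -HOT. Both -HOT libraries were higher, and the log2 fold change was -0.66 (SE 0.10, adjusted p = 5.42e-08, edgeR). The 101 bases printed for this promoter lie inside it.

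Inpp5f encodes a phosphoinositide phosphatase, and an internal promoter in one of its introns gives a short, paternally expressed transcript from a germline DMR. The site at the internal start of Inpp5f-006 (chromosome 7, 135831398 to 135832146) measured 2.53 and 3.03 CPM in +HOT against 5.08 and 4.85 CPM in -HOT, and was lost with a log2 fold change of -0.85 (SE 0.20, adjusted p = 0.000183, edgeR). The main, non-imprinted start of Inpp5f-001 measured 29.2, 29.9, 37.1 and 31.0 CPM and was not called (log2 fold change -0.20). The groups were apart at both starts, and the difference between the starts was not tested.

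Snrpn encodes a small nuclear ribonucleoprotein, and its promoter is the imprinting centre of the Prader-Willi region. The site 656 bp downstream of its start measured 7.51 and 8.44 CPM in +HOT against 11.4 and 10.5 CPM in -HOT, and was lost at -0.46 (SE 0.13, adjusted p = 0.00186, edgeR). The call was lost without the first +HOT library (-0.38), with the GC trend removed (-0.36), with abundance-trended offsets (-0.37) or with library totals (-0.39). Its 1564 bp held 10 TGCCGC, the 4 in the printed window among them, and the groups did not overlap.

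Airn is the antisense noncoding RNA that starts in an intron of Igf2r and silences it on the paternal allele, and its start lies in the germline DMR of this locus. The site over this start measured 16.8 and 15.0 CPM in +HOT against 22.2 and 20.9 CPM in -HOT and was lost at -0.43 (SE 0.10, adjusted p = 0.000358, edgeR). It was not called without the second +HOT library (-0.36) or without the first -HOT library (-0.39), with library totals (-0.36) or with abundance-trended offsets (-0.24). Both -HOT libraries were higher.

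Grb10, an adaptor protein that restrains insulin receptor signalling, is maternally expressed from an upstream promoter in most tissues and paternally expressed in neurons from starts in a germline DMR. The upstream site near the start of Grb10-003 measured 11.6 and 11.2 CPM in +HOT against 17.2 and 17.7 CPM in -HOT and was lost at -0.61 (SE 0.11, adjusted p = 2.56e-06, edgeR). In contrast, the CpG-rich site at the internal start of Grb10-001, named here after its values were seen, measured 5.90, 5.96, 4.58 and 3.92 CPM and was gained at 0.47 (adjusted p = 0.0156, edgeR). The gain was not called by DESeq2 (adjusted p = 0.126), nor with TMM factors from distal sites, without either +HOT library (0.0556 and 0.0532) or the second -HOT library (0.161).

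The promoters of 6 further genes with a germline DMR were not called. The site at the start of Impact, a regulator of the kinase GCN2, measured 42.2, 43.7, 43.3 and 43.6 CPM, the most even of them, with a log2 fold change of -0.02. The site of Peg3, a zinc finger protein gene of the placenta and brain, measured 38.0, 40.1, 41.8 and 43.8 CPM (-0.13). The promoter of Mest, which encodes an alpha/beta hydrolase fold protein, stood at -0.22 on the log2 scale. That of Zrsr1, a splicing factor related to U2AF, stood at -0.12, that of Plagl1, a zinc finger protein that restrains growth, at -0.08 and that of Nap1l5, a nucleosome assembly protein, at 0.09. None of these 6 sites was called under any of the 13 alternatives. For Nnat 0 sites lay within 3000 bp of its start.

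**Figure D3:**
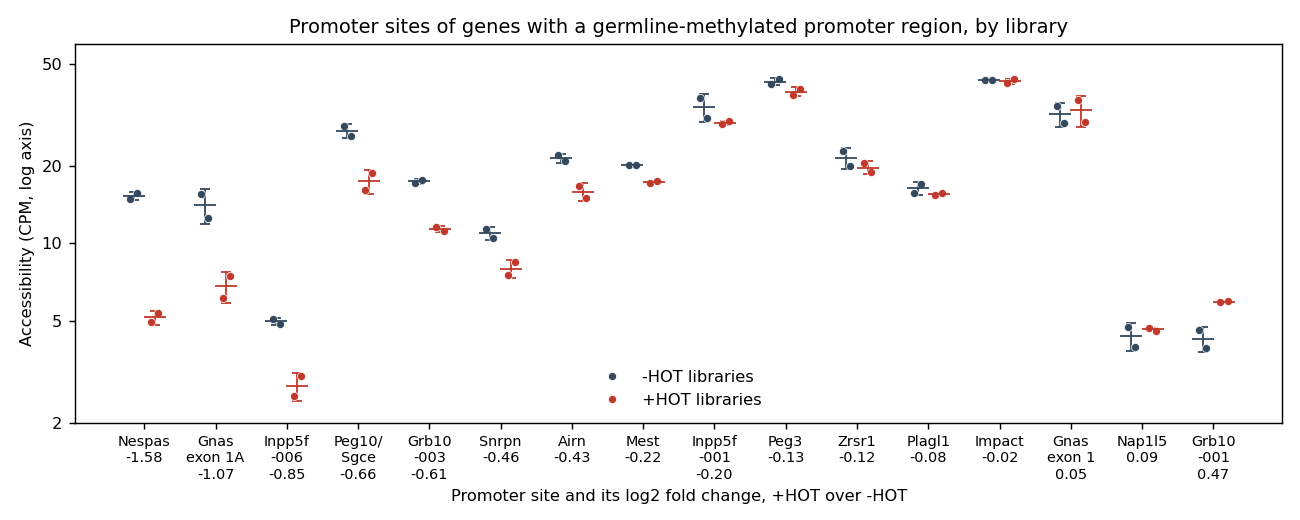
Accessibility (CPM, log axis) of the 12 promoter sites nearest a start of genes with a germline DMR and of the Nespas, exon 1A, Inpp5f-006 and Grb10-001 starts, in each library, with group means and SD (n = 2 per group), ordered by the log2 fold change written under each name. At the left, Nespas, exon 1A, Inpp5f-006, Peg10/Sgce and Grb10-003 have -HOT points above the +HOT points, while Impact, Gnas exon 1 and Nap1l5 overlap and Grb10-001, at the far right, has the +HOT points higher.

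The Igf2-H19 cluster holds a fetal growth factor gene and a noncoding RNA gene with opposite imprinting. Here 0 of 8 sites were lost, beside 14.2% of all sites. The 2 sites with the CTCF motifs upstream of H19 measured 7.06, 9.48, 8.14 and 9.0 CPM (the nearer one) and 4.74, 4.29, 3.72 and 5.29 CPM (the farther one). The groups overlapped at both, with log2 fold changes of -0.06 and 0.02, and neither was called under any of the 13 alternatives. The site at the H19 start measured 2.28 and 2.08 against 2.94 and 3.21 CPM and was not called (-0.49, adjusted p = 0.0764, edgeR), although it was called with TMM factors from sites away from promoters and with abundance-trended offsets. The site at the Igf2 start was not called (0.18), but was called gained with the GC trend removed (0.49).

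A site downstream of Igf2 gained more than any other of the 178. It lies outside the gene, 10647 bp from the nearest Igf2 start (chromosome 7, 149832493 to 149832955), and measured 2.67 and 3.25 CPM in +HOT against 0.50 and 1.17 CPM in -HOT. The level was 3.54-fold higher in +HOT, from low values, with a log2 fold change of 1.85 (SE 0.30, adjusted p = 1.38e-07, edgeR; 0.000334 with DESeq2). It was 1.32 without the first -HOT library and 2.54 without the second, and was called in every case. The site held neither motif, and 200 bases around its centre are printed for comparison with the stretches above.
Igf2, downstream site, chr7:149832625-149832824, plus strand: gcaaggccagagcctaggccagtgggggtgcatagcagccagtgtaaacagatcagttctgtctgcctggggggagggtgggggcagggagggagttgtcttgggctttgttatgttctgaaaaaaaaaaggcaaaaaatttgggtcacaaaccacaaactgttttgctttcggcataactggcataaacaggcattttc

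This stretch holds 1 CpG in 200 bases, where those of exon 1A, Inpp5f-006, Snrpn and Nespas hold 27, 25, 13 and 11 in 300 and that of Peg10 and Sgce holds 13 in 101.

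Igf2r encodes the receptor that clears IGF2. In the Igf2r-Airn cluster 5 of 27 sites were lost and 4 gained, beside 14.2% and 21.3% of all sites. The promoter site of Igf2r-001, named after its values were seen, measured 10.9 and 9.53 CPM in +HOT against 16.4 and 14.4 CPM in -HOT and was lost at -0.59 (SE 0.12, adjusted p = 1.45e-05, edgeR). The most accessible site of the cluster, in an intron of Airn, measured 27.1, 28.1, 25.3 and 23.9 CPM and was not called (0.17). The largest loss was an intronic site 3371 bp from the start of Igf2r-002 with 5.13 and 5.33 against 8.50 and 7.23 CPM (-0.60, adjusted p = 0.000567, edgeR). The largest gain was an intronic Igf2r site with 1.69 and 1.90 against 0.889 and 1.07 CPM (0.87, adjusted p = 0.0193, edgeR), which was not called by DESeq2 (0.131) nor without the second +HOT library (0.0918) or the first -HOT library (0.160).

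The Snrpn-Ube3a cluster contains Magel2, Ndn and Mkrn3, paternally expressed neighbours of Snrpn, and Ube3a, an E3 ubiquitin ligase imprinted in neurons. The Magel2 promoter measured 1.16 and 1.31 against 2.50 and 1.91 CPM and was lost at -0.85 (adjusted p = 0.0111, edgeR), but not by DESeq2 (0.101), with the GC trend removed, or without the first +HOT (0.0809) or the first -HOT library (0.199). A site 5523 bp downstream of the Magel2 start measured 4.91 and 4.65 against 2.83 and 2.44 CPM and was gained at 0.85 (SE 0.20, adjusted p = 0.000216, edgeR), a call that held under all 13 alternatives. Neighbouring sites thus moved in opposite directions. The Mkrn3 promoter, named after its values were seen, was gained at 0.63 with edgeR but not with DESeq2, and not without the second +HOT or the first -HOT library (adjusted p = 0.0917 and 0.165). The Ndn promoter (-0.15) and the Ube3a promoter, at 41.0, 31.9, 41.8 and 39.0 CPM (-0.14), were not called.

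In the Kcnq1 cluster 1 of 12 sites was lost and 2 were gained, beside 14.2% and 21.3% of all sites. Cd81 encodes a tetraspanin, and a site at its promoter measured 26.5 and 23.6 CPM in +HOT against 37.9 and 39.8 CPM in -HOT, with a log2 fold change of -0.63 (SE 0.10, adjusted p = 5.16e-08, edgeR). It was clearly lower in both +HOT libraries. The promoter of Tssc4, the most accessible site of the cluster at 40.6, 42.1, 48.4 and 44.5 CPM, was not called (-0.17), and neither was that of Cdkn1c, a cyclin-dependent kinase inhibitor (-0.17). An intronic site of the transporter gene Slc22a18 rose from 3.33 and 2.85 CPM to 4.95 and 5.28 CPM (0.72, adjusted p = 0.00103, edgeR). A site 3966 bp upstream of Phlda2, a gene that limits placental growth, was gained as well (0.68) and is named after its values were seen. The Phlda2 promoter itself was just short of the fold minimum (-0.39) and was called lost without the second +HOT library (-0.45), without the second -HOT library (-0.50) or with TMM factors from distal sites (-0.47).

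The Dlk1-Dio3 cluster had 21 sites, of which 2 were lost and 1 was gained. Dio3 encodes the deiodinase that inactivates thyroid hormone, and the site at its start measured 2.91 and 2.84 CPM in +HOT against 5.17 and 4.49 CPM in -HOT (log2 fold change -0.75, SE 0.19, adjusted p = 0.00095, edgeR). With the GC trend removed it stood at -0.44 and was not called. The promoter site of Meg3, the maternally expressed noncoding RNA of the cluster, measured 21.7, 23.8, 25.2 and 25.1 CPM and was not called (-0.15). The most accessible site of the cluster, near Mirg, had 22.0, 22.5, 28.5 and 23.6 CPM (-0.23, not called). The gained site, near Rtl1, measured 1.54 and 1.54 against 0.944 and 0.736 CPM (0.86, adjusted p = 0.0293, edgeR) and was not called by DESeq2 or when any single library was left out (adjusted p from 0.0599 to 0.181). Dlk1, a transmembrane inhibitor of adipogenesis, had 2 sites, neither of which was called.

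At the Peg3 cluster the zinc finger gene Zim1 stood apart from Peg3. The site at the start of Zim1-002 measured 4.21 and 3.43 CPM in +HOT against 2.06 and 1.41 CPM in -HOT. It was gained at 1.13 (SE 0.23, adjusted p = 2.68e-05, edgeR), under all 13 alternatives, and was CpG-poor with 0.24 CpG per 100 bp. In the same cluster, the Peg3 promoter held 3.68 CpG per 100 bp and did not pass the test.

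Sgce had 8 sites, all with log2 fold changes below 0 in the main test and 5 to 8 of them under the alternatives. Besides the shared promoter, an intronic site with 4.25 and 4.38 against 6.81 and 7.16 CPM was lost (-0.69, adjusted p = 0.000177, edgeR). In the body of H13, which encodes a signal peptide peptidase, 8 of 9 sites were below 0 (6 to 9 under the alternatives) and 1 was lost, 5821 bp from the start of H13-003. It measured 14.7 and 12.1 CPM in +HOT against 21.2 and 20.4 CPM in -HOT (-0.63, SE 0.11, adjusted p = 7.20e-07, edgeR). The H13 promoter at 32.2, 30.7, 38.4 and 41.0 CPM had a log2 fold change of -0.34 and was below the fold minimum, but was called lost with TMM factors from distal sites (-0.41). Of all tested sites 59790 of 119603 were below 0, of all promoter sites 15666 of 20542 and of the imprinted-locus sites 108 of 178. The share differed between clusters, with 3 of 8 below 0 at Igf2-H19 and 0 of 2 at Nap1l5.

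Commd1, a copper metabolism gene that hosts Zrsr1 in an intron, had 14 sites of which 3 were lost and 2 gained. The most accessible one measured 26.4 and 19.2 against 33.1 and 31.5 CPM and was lost at -0.50 (adjusted p = 2.72e-05, edgeR). It lies 310 bp from the start of another gene, B3gnt2, and was not called without the second +HOT library (-0.30) or with the GC trend removed (-0.27). The largest loss, an intronic site, measured 6.07 and 6.10 against 9.86 and 9.67 CPM (-0.68, adjusted p = 1.89e-05, edgeR) and was called under all 13 alternatives. The largest gain was from 0.444 and 0.703 CPM to 1.33 and 1.44 CPM (1.29, adjusted p = 0.00301, edgeR) and was not called by DESeq2 (0.0584) or without the first -HOT library (0.0985).

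Trappc9, a transport protein particle subunit gene, had 21 sites spread over a long gene body. Of these 2 were lost and 6 gained (9.52% and 28.6%), beside 14.2% and 21.3% of all sites. The Trappc9 promoter measured 26.0, 26.0, 30.5 and 32.2 CPM and was below the fold minimum (-0.27). The largest gain, an intronic site, measured 2.63 and 2.57 CPM in +HOT against 0.889 and 1.31 CPM in -HOT (1.26, SE 0.28, adjusted p = 0.000125, edgeR). The largest loss, another intronic site, measured 1.93 and 1.58 against 4.11 and 2.98 CPM (-1.01, adjusted p = 0.000236, edgeR), a call that ended without the first -HOT library (0.0545).

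Mest had a lost site 2270 bp downstream of the start of Mest-002 with 1.09 and 1.26 against 2.44 and 2.04 CPM (-0.94, adjusted p = 0.00489, edgeR), which was not called by DESeq2 (0.0635) nor without the first +HOT (0.0547) or the first -HOT library (0.0917). In its neighbour Copg2, a coatomer subunit gene, an intronic site measured 2.42 and 3.93 against 1.94 and 1.94 CPM and was gained (0.69, adjusted p = 0.0149, edgeR). That gain was not called by DESeq2 (0.125), and without the second +HOT library its log2 fold change was 0.32. It was also not called without the first or the second -HOT library (0.0763 and 0.0623). The Copg2 promoter was not called (-0.31), but was called lost without the first +HOT library (-0.43).

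Rasgrf1, a guanine nucleotide exchange factor gene, had 4 sites of which 2 were gained, the larger one 18112 bp downstream of its start with 2.74 and 3.43 against 1.64 and 1.27 CPM (1.06, SE 0.25, adjusted p = 0.000321, edgeR). The most accessible Rasgrf1 site, upstream of its start, measured 10.5, 10.2, 10.0 and 9.94 CPM (0.06). Blcap had its highest site at its start, with 35.6, 30.8, 38.0 and 36.1 CPM, and was not called (-0.15). In Grb10 the most accessible site was intronic (24.0, 22.2, 24.8 and 27.8 CPM) and was not called (-0.18), while the largest gain measured 4.07 and 3.93 against 2.42 and 2.71 CPM (0.65, adjusted p = 0.00817, edgeR; 0.0837 with DESeq2 and 0.0994 without the first -HOT library). The largest Grb10 loss measured 1.19 and 2.03 against 2.72 and 2.31 CPM (-0.68, adjusted p = 0.0304, edgeR; 0.187 with DESeq2, 0.450 without the first +HOT library and 0.230 without the first -HOT library). The 3 sites of Plagl1, the 3 of Impact, the 2 of Nap1l5 and the 4 of Nnat and Blcap were not called.

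The lost and the gained sites differed in base composition and in level. The 28 lost sites had a median of 2.77 CpG per 100 bp and of 9.85 CPM, the 27 gained sites a median of 1.18 CpG per 100 bp and of 2.80 CPM. Of the 52 sites with 3 or more CpG per 100 bp 14 were lost and 3 gained, where 25.0% of all such sites were lost and 3.17% gained. Of the 126 sites with fewer CpG 14 were lost and 24 gained, where 12.6% and 24.0% of all such sites were. Below 5 CPM 8 of 87 sites were lost and 21 gained, and at 5 CPM or more 20 of 91 were lost and 6 gained. Over all sites these shares were 9.19% and 30.6% below 5 CPM and 20.1% and 10.3% above. Like all sites, the imprinted-locus sites thus held more losses at high and more gains at low levels, as the plot of change against level shows.

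**Figure D4:**
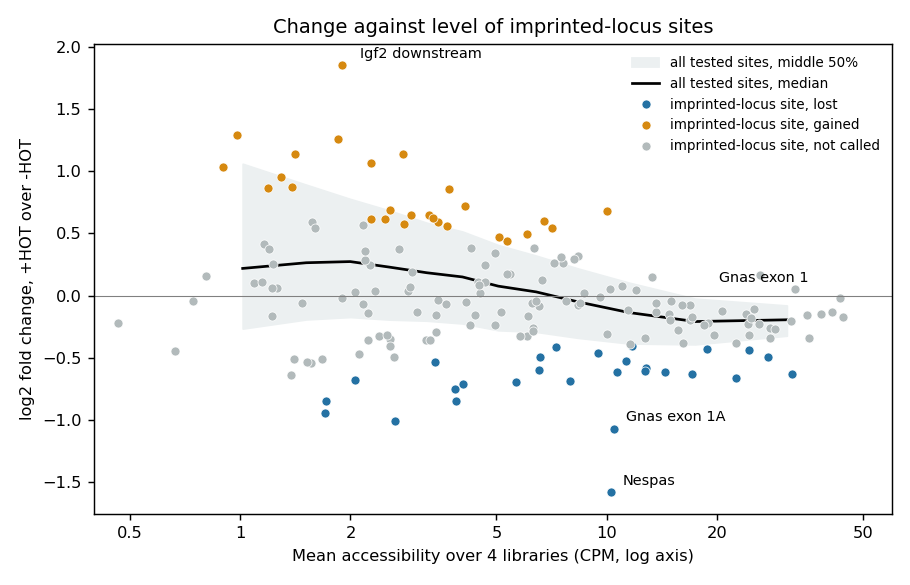
Log2 fold change (+HOT over -HOT, vertical axis) of the 178 imprinted-locus sites against their mean accessibility over the 4 libraries (CPM, log axis), coloured by call. The black line is the median and the grey band the middle 50% of all tested sites in 12 bins of level, and the Nespas site (-1.58) and the exon 1A site (-1.07) lie below the band while the Igf2 downstream site (1.85) lies above it.

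A list of 24 genes that set or maintain imprinting marks was examined at the promoter site with the highest count. Of 21 with such a site 6 were lost and 0 gained, where 23.5% of all promoter sites were lost and 7.07% gained. Hells, a chromatin remodeler that supports DNA methylation, measured 16.5 and 15.1 CPM in +HOT against 28.7 and 24.2 CPM in -HOT (-0.74, adjusted p = 2.38e-09, edgeR). Uhrf1, which guides the maintenance methyltransferase to hemimethylated DNA, measured 25.3 and 24.2 against 39.5 and 39.0 CPM (-0.66). The other losses, named after their values were seen, were Zfp57 itself with 12.2 and 12.4 against 19.5 and 18.9 CPM (-0.64, adjusted p = 4.97e-07, edgeR), the methylcytosine oxidase genes Tet1 (-0.54) and Tet2 (-0.46), and Dnmt1, the maintenance methyltransferase (-0.46). The promoters of Trim28 (-0.02) and Ctcf (-0.03), also named after their values were seen, were not called.

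A second list held 46 symbols of other imprinted genes, of which 40 are in the annotation, the 6 absent ones including newer symbols of listed genes. A promoter site was found for 31, of which 14 were lost and none gained. Nespas and Mcts2 are among them, whose sites belong to the 178, and without both 13 of 29 were lost. Their median was -0.31 on the log2 scale, beside 23.5% lost and a median of -0.21 for all promoter sites. The largest losses were Nespas, described above as site 2 of the Gnas locus, and Sfmbt2, a Polycomb protein gene that is imprinted in extraembryonic tissue, which measured 12.2 and 11.5 CPM in +HOT against 32.2 and 29.8 CPM in -HOT (-1.39, SE 0.11, adjusted p = 1.84e-22, edgeR). The promoter site of Mcts2, named after its values were seen, a paternally expressed retrogene in an intron of H13 and the source of the imprint there, measured 9.58, 8.26, 11.3 and 10.9 CPM and was not called (-0.31), but was called lost without the first +HOT library (-0.43).

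Beside 23.5% lost and 7.07% gained of all promoter sites, 6 of 13 fibroblast marker promoters were lost and 0 gained, the largest being Twist2 (-0.78) and Thy1 (-0.74). Of 17 promoter sites of neural, epithelial, blood and endothelial markers 11 were lost and 1 gained, including Syt1 (-1.34), Snap25 (0.73), Esrp2 (-0.70), Cdh1 (-0.62), Runx3 (-1.25), Kdr (-0.99) and Pecam1 (-0.92). Their summed level was 122 to 129 CPM in +HOT and 173 to 188 CPM in -HOT, against 507 to 522 and 625 to 654 CPM for the fibroblast markers. The part of these marker differences in the values of the imprinted loci was not tested.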

How the data were processed

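Per the methods, the authors used Trim_Galore for adapters and BWA for alignment of the paired reads to mm9, removed duplicates, unpaired reads and blacklisted regions with Picard and SAMtools, and called narrow peaks with MACS2. For their versions, and for the way peaks became 1 table of intervals, the sources used here give no account. Removing duplicates limits the strongest sites, and closed chromatin between peaks is not measured. The deposited raw read counts per interval were used. Deposited size-factor-scaled values, and the authors' DESeq2 fold changes and p-values, were left out. Starts were set to 1-based positions. Counts of all 4 libraries were tested with edgeR 4.0.16 (R 4.3.3; filterByExpr, TMM factors 0.969 to 1.04, quasi-likelihood test, Benjamini-Hochberg adjustment over 119603 sites, adjusted p under 0.05 and absolute log2 fold change over 0.40). Replicate libraries differed by more than sampling noise (chi-square per degree of freedom 2.38 in +HOT, 2.22 in -HOT) and were kept separate. Alternatives were DESeq2 1.42.0, its size factors in edgeR, library totals, TMM on distal sites, no filter, a mean count of 30, abundance-trended offsets, a GC trend removed, the replicate number as a block, each library left out and other gene windows. Calls by the adjusted p alone, without the fold minimum, were counted as well. The 13 alternatives of a site leave out these calls and the gene windows. Named are all Gnas sites, per cluster the most accessible site and the largest called loss and gain, the site nearest a start of each germline DMR gene, and per list up to 2 called losses and gains. Other named sites were chosen after their values were seen. The members and lists were chosen with earlier results of these data known.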

Additional observations from a re-analysis of the deposited data

How the results depend on the processing

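Of 741 comparisons of 53 named sites with an alternative or with the adjusted p alone, 685 kept the call, 50 lost it and 6 gained one. Among called sites 0 changed sign, while the sign of uncalled sites changed in 27 comparisons. Of the 55 called sites 20 (13 lost, 7 gained) were called under all 13 alternatives. The count of gained sites fell from 27 to 13 with abundance-trended offsets and to 10 with DESeq2, was 15 to 21 when a library was left out, and was 42 with a window of 20 kb around the genes. Over all sites DESeq2 called 15087 gained and edgeR 25433. The median of the imprinted-locus sites was -0.025 with library totals, -0.17 with TMM factors from distal sites, -0.0599 with abundance-trended offsets, -0.065 with the GC trend removed, -0.14 within gene bodies and -0.059 within 20 kb. Promoter calls of the lists changed as follows. Gained regulators of imprinting marks were 1 with abundance-trended offsets, 1 with the GC trend removed and 0 to 1 when a library was left out. Other imprinted genes lost were 9 with abundance-trended offsets and 22 with the adjusted p alone, and 1 was gained with a promoter window of 1000 bp. Fibroblast markers lost were 3 with abundance-trended offsets. Markers of other cell types lost were 7 with the GC trend removed and 6 with DESeq2, and 6 to 10 when a library was left out. Those gained were 2 with abundance-trended offsets, 0 with DESeq2 and 0 to 1 when a library was left out. The replicate numbers do not pair the samples, since same-numbered libraries deviated together at a correlation of 0.04. With the replicate block 28 sites were lost and 27 gained, all 55 of them called without it. Depth limits the sites under 5 CPM, which held 21 of the 27 gains, and DESeq2 called 10 of the 27.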
